A study of Mus musculus with 34 samples.

Results

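The change from day 1 to day 3 after contusion was measured in the thoracic spinal cord of trkB.T1 KO mice, by setting the 5 arrays titled DAY3KO against the 4 titled DAY1KO. The 9 arrays were picked by their titles alone, out of 34 in the series, and every gene expressed on the arrays was compared. TrkB, the product of Ntrk2, is the receptor of brain-derived neurotrophic factor (BDNF), and its short form trkB.T1 lacks the kinase. Both groups carried the trkB.T1 KO genotype on C57BL/6J (more than 20 backcross generations), were 8 to 12 weeks old and had a moderate contusion, so they differed in the time since injury. The other knockout groups, given below as levels, are the control arrays titled SHAMKO (4), whose description codes begin with Nav, so that whether they had a sham operation is not settled, and the day 7 arrays (4). The wild-type groups used for comparison are DAY1WT (5 arrays) and DAY3WT (4 arrays), of the same strain, age and injury. The labels call each array a biological replicate but give no sex, no pooling and no animal number. The p-values below thus rest on the spread between samples, estimated from all 34 arrays together. They name no promoter or cell type for the deletion, which the wild-type groups did not carry, and they do not say how the knockout was made. A segment of whole cord was measured, so fewer cells of a type and less RNA per cell cannot be told apart in any value below.

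Contusion kills neurons and glia at once and is followed by waves of cells. Neutrophils and early cytokines come first, then monocytes that become lipid-laden phagocytes, while resident microglia, astrocytes, oligodendrocyte precursors, endothelium and fibroblasts divide around the lesion. A dividing cell switches on its genes in order: G1/S regulators of the E2F family, then the machinery that licenses and copies DNA, then the kinases, cyclins and spindle proteins of G2 and mitosis, whose promoters often hold CCAAT boxes and cell cycle homology regions.

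Values are log2 expression as deposited, so that 1 unit is a 2-fold difference. On 2 of the 6 tested Ntrk2 probe sets the signal was lost in the knockout cords: 1435196_at read 2.83 in all 9 arrays (wild-type arrays at these days 8.64 to 9.42), and 1420838_at read 3.12 to 4.94 (wild type 10.01 to 10.82), as the labels have it. The library labelled SHAMKO replicate 2 read 8.59 on 1435196_at and 9.46 on 1420838_at, against its label, so the SHAMKO levels below are those of the 4 arrays as titled. Markers of the tissue were high in all 9 arrays, with Snap25 of neurons at 13.82 or more, Mbp of myelin at 15.50 or more and Gfap of astrocytes at 12.70 or more. Skeletal muscle genes set 2 day 3 arrays apart: the mean over the 16 muscle genes was 10.79 in replicate 1 and 13.12 in replicate 3, and 4.92 to 5.50 in the other 3, against 4.00 to 6.48 at day 1. None of the muscle genes is at 0 in any array, since the scale ends at 2.17. The actin 3′ minus 5′ probe difference, a measure of RNA integrity, was 1.75 to 1.82 at day 1 and 1.22 to 1.81 at day 3. Its part in the results was not tested. Results that rest on replicates 1 and 3 are given with and without them.

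Of the genes tested 53% changed between the days. A gene counts as higher or lower at day 3 when its Benjamini-Hochberg adjusted p from limma, over all 24573 probe sets tested, is under 0.05. Of the probe sets 46.6% changed. Of 11998 genes, 2741 (22.8%) were higher and 3617 (30.1%) lower, and the median change of all genes was −0.05. Changes of at least 2-fold were more often increases, with 913 genes (7.61%) higher and 309 (2.58%) lower. All day 3 arrays lay above all day 1 arrays for 2143 genes (17.9%) and below them for 2247 (18.7%). These shares are the background for every count of list members below. A gene near the bottom of the scale at day 1 is in the test only if other arrays of the series were brighter, so counts over the tested members of a list describe those members and not the whole list. Where a group sits at the lowest value of a probe set, the difference is a lower bound.

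**Figure D1:**
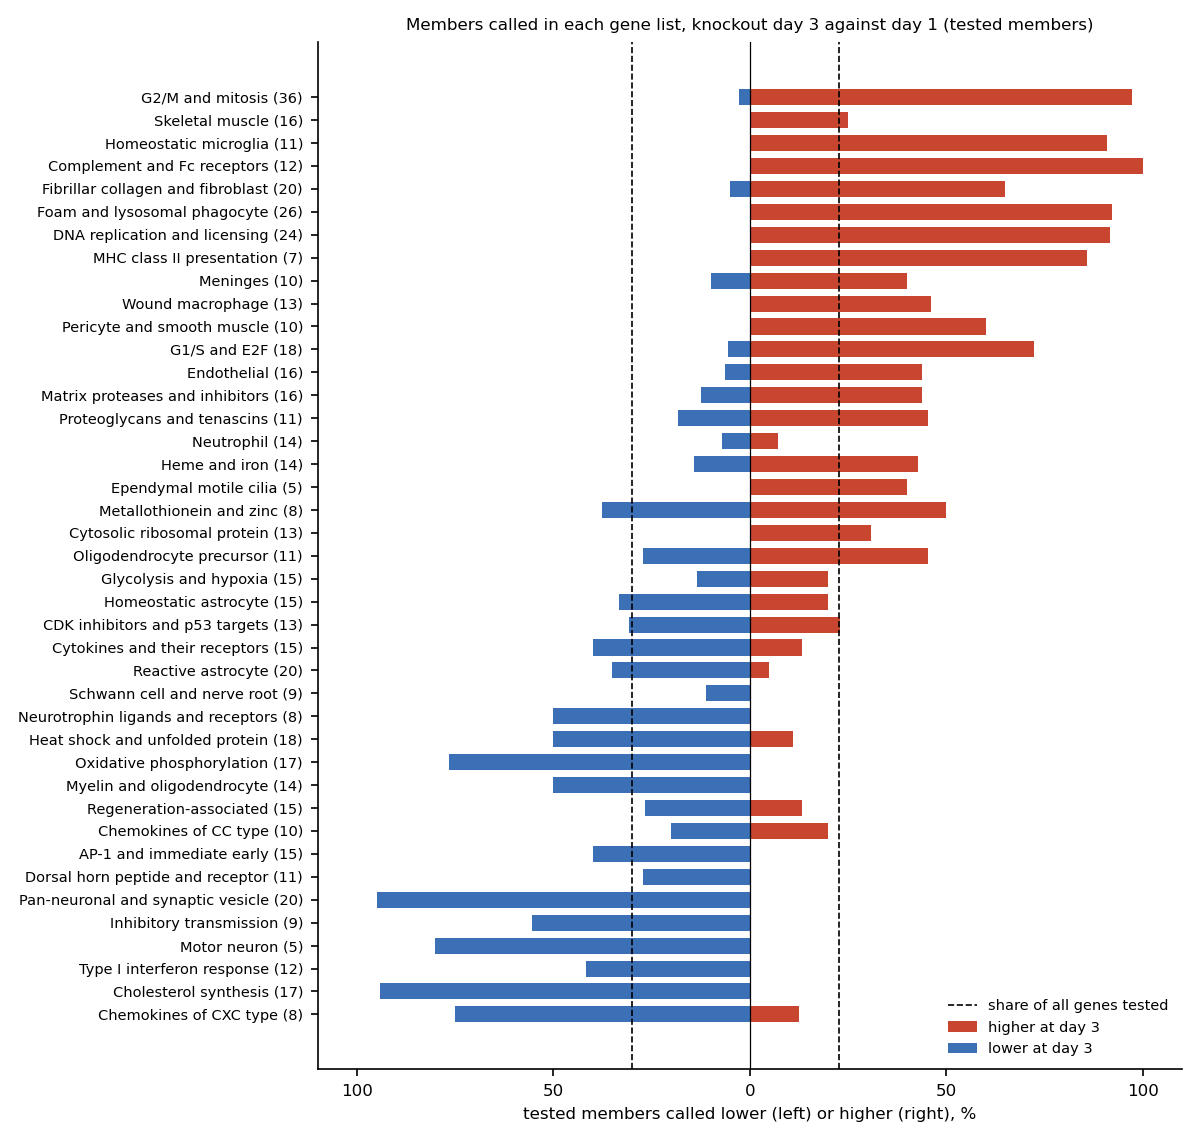
Share of the tested members of each gene list that were higher (right) or lower (left) at day 3 in the knockout cords, at a limma adjusted p under 0.05. Dashed lines mark the shares over all 11998 genes, 22.8% higher and 30.1% lower. Lists are ordered by their median change, from G2/M and mitosis at 4.45 to chemokines of CXC type at −1.08, and the number tested stands in brackets.

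Genes of G2 and mitosis made the largest rise. Of 37 listed, 36 were tested, and 35 rose and 1 fell, against 22.8% of all genes higher. The median change was 4.45 where the median of all genes was −0.05. Mki67, which encodes the proliferation antigen Ki-67, read 4.12, 3.66, 4.35 and 2.87 in the day 1 arrays and 10.43, 10.04, 10.92, 10.91 and 10 in the day 3 arrays. The groups lie far apart: the highest day 1 array is below the lowest day 3 array by more than the range within either group. The difference was 6.71 ± 0.45 (SE), or 105-fold (limma adjusted p = 9.77e-13). Top2a, the topoisomerase that untangles sister chromatids, read 4.25, 4.62, 4.47 and 3.69 in the day 1 arrays and 9.91, 9.66, 10.21, 10.37 and 9.79 in the day 3 arrays. No array of one day reached the other, and the change was 5.73 ± 0.27 (53.1-fold, limma adjusted p = 5.19e-16). Cdk1, the kinase that drives entry into mitosis, read 4.50, 3.99, 4.03 and 3.91 in the day 1 arrays and 9.02, 8.75, 9.21, 9.67 and 8.79 in the day 3 arrays. It rose by 4.98 ± 0.20 (31.6-fold, limma adjusted p = 4e-17), again with no overlap.

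The regulators and effectors of division moved together. Pbk, a mitotic kinase, rose by 6.41 ± 0.30, and Ube2c, the ubiquitin-conjugating enzyme of the anaphase-promoting complex, by 6.21 ± 0.36. Cyclins Ccnb2 and Ccna2 rose by 5.42 ± 0.22 and 5.40 ± 0.23. The spindle and chromatin proteins Nusap1, Aspm, Birc5, Cenpa and Bub1 rose by 5.49 to 5.52, and the abscission protein Cep55 by 5.45 ± 0.23. Aspm read 2.17 to 2.18 in all day 1 arrays but replicate 3 (2.54), so its rise is a lower bound. The mitotic kinases Plk1 and Aurkb rose by 3.24 and 2.53. Both read near the bottom of the scale at day 1 (Plk1 2.17 to 2.51, Aurkb 2.17 to 2.93), so these sizes are lower bounds. The single member that fell was Anln, which encodes anillin of the contractile ring and is also carried by mature oligodendrocytes. It read 12.53, 12.34, 12.46 and 12.33 in the day 1 arrays and 11.69, 11.83, 11.66, 11.76 and 11.88 in the day 3 arrays, a change of −0.65 ± 0.10 (limma adjusted p = 3.87e-06). Averaged over the 36 members, the day 1 arrays read 3.96, 3.87, 3.88 and 3.78 and the day 3 arrays 8.06, 7.79, 8.34, 8.61 and 7.94. The day 1 level was that of the controls, 3.92 ± 0.18 (SD, n = 4) in SHAMKO, and the day 7 level 5.95 ± 0.16 (SD, n = 4) lay between. With the muscle-bearing day 3 replicates 1 and 3 left out, the counts stayed at 35 and 1 and the median was 4.40.

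**Figure D2:**
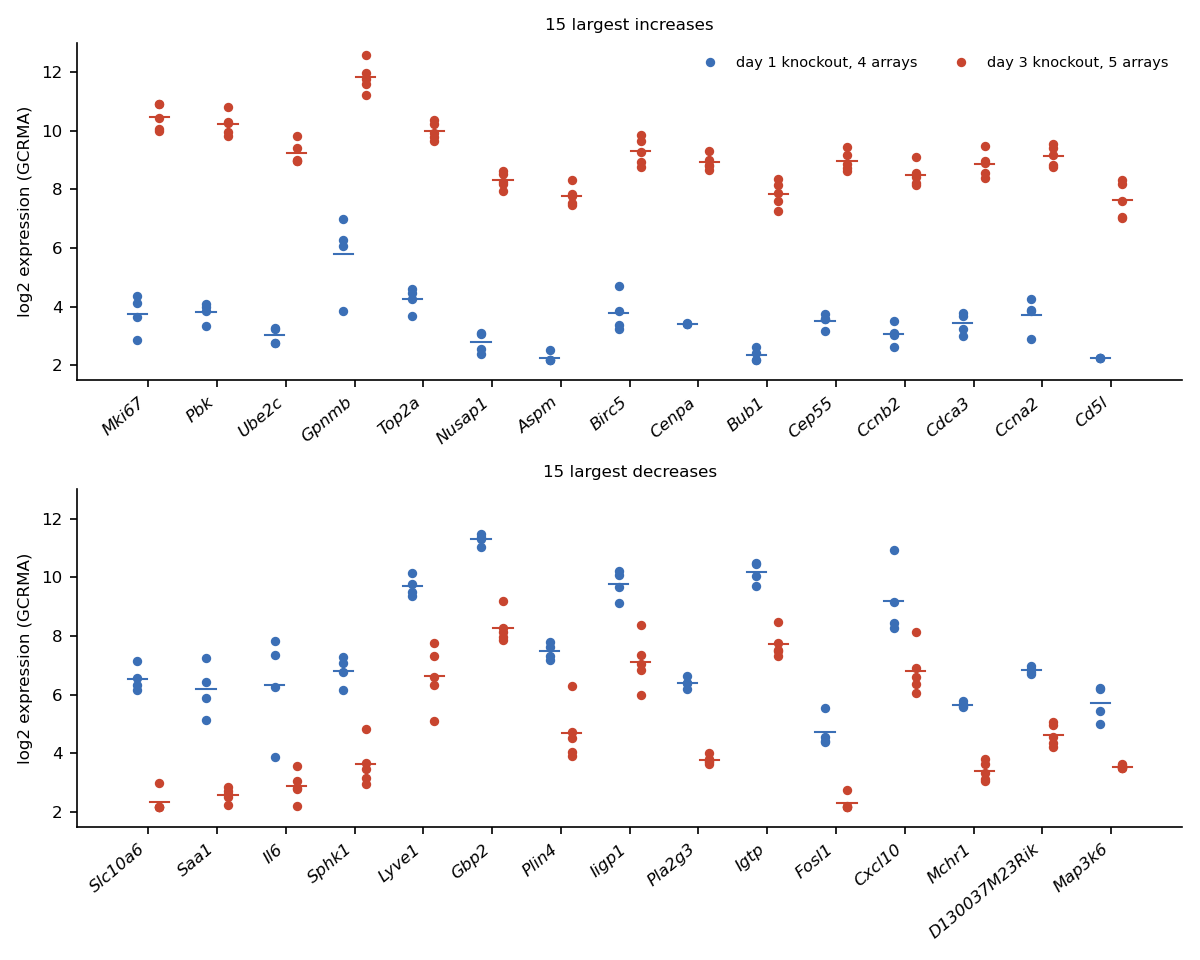
Log2 expression of the 15 genes with the largest increase (top) and the 15 with the largest decrease (bottom) among genes with a limma adjusted p under 0.05 and no overlap between days. Each point is 1 knockout array (day 1 blue, day 3 red), and short lines are group means. Mki67 goes from a day 1 range of 2.87 to 4.35 to a day 3 range of 10 to 10.92.

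The stretches upstream of 3 of these G2 and mitosis genes and of the DNA replication gene Mcm5 are shown as examples. They come from 9 lead genes of the 2 lists with a promoter sequence. They are RefSeq sequences of GRCm38.p6, the 250 bases before the start site, 5′ to 3′ along the gene. Capitals mark CCAAT (the core of a CCAAT box), TTTGAA and TTCGAA (cores of the cell cycle homology region) and TTCCCGC and TTGGCGC (E2F-type), each searched on both strands. Overlapping matches are capitalised as 1 run.
Mki67 (chr7:135716380-135716629, minus strand): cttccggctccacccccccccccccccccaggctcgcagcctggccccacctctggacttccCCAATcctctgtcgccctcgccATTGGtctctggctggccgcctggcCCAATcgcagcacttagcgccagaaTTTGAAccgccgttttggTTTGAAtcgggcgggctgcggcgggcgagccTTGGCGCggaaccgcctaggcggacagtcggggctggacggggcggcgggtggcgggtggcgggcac
Top2a (chr11:99024190-99024439, minus strand): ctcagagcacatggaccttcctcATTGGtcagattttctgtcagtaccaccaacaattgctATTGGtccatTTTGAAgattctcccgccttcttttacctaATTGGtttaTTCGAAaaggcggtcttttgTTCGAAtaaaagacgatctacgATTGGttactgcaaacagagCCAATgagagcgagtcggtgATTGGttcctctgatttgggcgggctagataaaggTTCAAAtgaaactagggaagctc
Cdk1 (chr10:69352913-69353162, minus strand): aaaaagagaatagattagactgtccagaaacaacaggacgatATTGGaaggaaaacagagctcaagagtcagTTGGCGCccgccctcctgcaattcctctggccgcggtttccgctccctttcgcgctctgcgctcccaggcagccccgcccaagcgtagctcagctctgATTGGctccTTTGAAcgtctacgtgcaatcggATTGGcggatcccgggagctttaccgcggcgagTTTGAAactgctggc
Mcm5 (chr8:75109259-75109508, plus strand): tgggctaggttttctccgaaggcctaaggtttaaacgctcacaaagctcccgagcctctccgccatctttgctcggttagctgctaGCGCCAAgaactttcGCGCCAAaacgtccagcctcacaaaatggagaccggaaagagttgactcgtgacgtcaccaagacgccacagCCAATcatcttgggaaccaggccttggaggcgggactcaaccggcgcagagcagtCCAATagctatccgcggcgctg
The Top2a stretch holds 6 CCAAT, 2 TTTGAA and 2 TTCGAA matches, and that of Cdk1 holds 3 CCAAT, 2 TTTGAA and 1 TTGGCGC. Mki67 has 3 CCAAT, 2 TTTGAA and 1 TTGGCGC, and Mcm5 has 2 CCAAT and 2 TTGGCGC. The lead genes not shown held fewer matches. Ccnb1 had 2 CCAAT and 1 TTGGCGC, Plk1, Rrm2 and Pcna 1 CCAAT each, and Cdc6 1 TTCCCGC. For the shares that follow, the same 250 bases before the start were searched in each promoter. Among 32851 promoters in the RefSeq table, 33.8% held CCAAT, 16% TTTGAA, 1.34% TTCGAA, 3.82% TTCCCGC and 1.97% TTGGCGC. Of 33 promoters of 31 G2 and mitosis genes, 28 (84.8%) held CCAAT, 13 (39.4%) TTTGAA, 2 (6.06%) TTCGAA, 3 (9.09%) TTGGCGC and 0 TTCCCGC. Of 23 promoters of 19 DNA replication genes, 13 (56.5%) held CCAAT, 6 (26.1%) TTCCCGC, 3 (13%) TTGGCGC, and 2 (8.7%) each TTTGAA and TTCGAA. These are matches of letters and were not tested for binding.

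The machinery of DNA replication rose less. Of 30 listed genes 24 were tested, and 22 were higher, 0 lower, with a median change of 1.41. Rrm2, the small subunit of ribonucleotide reductase, read 6.54, 7.01, 6.57 and 5.66 in the day 1 arrays and 11.07, 10.66, 11.64, 11.63 and 10.78 in the day 3 arrays. The groups do not overlap, and the rise was 4.71 ± 0.27 (26.2-fold, limma adjusted p = 3.97e-14). Tk1, the thymidine kinase of S phase, rose by 3.99 ± 0.29, with 2 day 1 arrays at the bottom of the scale. Cdc6, which loads the replicative helicase, rose by 2.12 ± 0.28. The helicase subunit Mcm5 read 8.55, 8.52, 8.21 and 7.76 in the day 1 arrays and 9.84, 9.40, 10.52, 10.52 and 9.73 in the day 3 arrays, a rise of 1.74 ± 0.21 (limma adjusted p = 2.05e-07). The sliding clamp Pcna was already high at day 1 and rose by 0.58 ± 0.09, with no overlap between days. Orc6 (0.16 ± 0.11, adjusted p = 0.208) and Fen1 (−0.06 ± 0.14, adjusted p = 0.738) did not pass. The list mean was 6.84, 6.88, 6.65 and 6.58 at day 1 and 8.14, 7.88, 8.67, 8.70 and 8.02 at day 3, so here the day 1 cords stood above SHAMKO at 5.89 ± 0.10 (SD, n = 4).

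Most G1/S regulators rose. Of 18 tested, 13 were higher and 1 lower, against 22.8% of all genes higher, with a median of 0.71. The late members E2f8, a repressor of the E2F family, and Ccne2 rose by 3.04 ± 0.30 and 1.86 ± 0.17, and E2f1 by 0.72 ± 0.18. Ccnd1, the cyclin that answers growth factors, rose by 0.42 ± 0.13, with arrays that overlap between days. Ccne1 read between 7.10 and 7.29 in all 9 arrays (−0.01 ± 0.07, adjusted p = 0.903). Myc fell by 0.92 ± 0.23 from 7.36 to 8.00 at day 1 to 6.12 to 7.34 at day 3. Among 13 tested CDK inhibitors and p53 targets, 3 rose and 4 fell, close to the shares of all genes (22.8% higher, 30.1% lower). Cdkn2c, the p18 inhibitor of CDK4 and CDK6, rose by 3.63 ± 0.19 from the lowest value of its probe set in all 4 day 1 arrays, so this size is a lower bound. Cdkn1a, the p21 inhibitor, fell by 1.02 ± 0.28, and Gadd45b by 1.43 ± 0.33. With the spread estimated from the 2 groups alone Ccnd1 and E2f1 did not pass (adjusted p = 0.0505 and 0.0882). The 4 decreases became 2 when day 1 replicate 1 or 3, or day 3 replicate 1, 2 or 5, was left out.

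The same 2 days were compared in wild-type cords, and the difference between the genotypes' changes was tested in the same fit. In wild type 27.1% of the probe sets changed, and 1769 genes (14.7%) were higher and 1933 (16.1%) lower at day 3. Of the knockout's higher genes 1554 were also higher in wild type (56.7% of the knockout's, 87.8% of the wild type's), and of its lower genes 1622 (44.8% and 83.9%). For 2 genes the calls had opposite signs. Across genes, which are not independent replicates, the changes correlated at r = 0.88. The change itself differed for 111 probe sets (0.452%) and, of the genes, for 76 (0.633%), 66 toward a higher change in the knockout (0.55%) and 10 toward a lower one (0.0833%). Of the 66, 16 were members of the G2 and mitosis list of 36 tested, 7 of DNA replication and 5 of G1/S.

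Mki67 had the largest such difference. Its wild-type arrays lay between 6.74 and 8.19 on day 1 and between 9.56 and 10.27 on day 3, a change of 2.74, and the knockout change exceeded it by 3.97 ± 0.63 (SE, limma adjusted p = 0.000951). The genotypes overlapped at day 3, while at day 1 every wild-type array was above every knockout array. Top2a changed by 2.44 in wild type, 3.29 ± 0.38 less than in the knockout (adjusted p = 9.03e-06), with wild-type day 1 arrays at 6.67 to 7.77. Pbk, Rrm2 and Birc5 differed by 3.16 ± 0.42, 2.79 ± 0.38 and 2.80 ± 0.39. For Cdk1 the difference was 2.48 ± 0.28 (adjusted p = 9.03e-06). Over the G2 and mitosis list, wild-type arrays averaged 4.92 ± 0.22 (SD, n = 5) at day 1 and 7.76 ± 0.40 (SD, n = 4) at day 3. For DNA replication these were 7.42 ± 0.19 and 8.02 ± 0.16. Ube2c (2.08 ± 0.52, adjusted p = 0.0627) and Plk1 (0.80 ± 0.32, adjusted p = 0.304) did not pass this test.

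The 10 genes that differed the other way are a number that moved with the arrays used: counted as probe sets they were 11, from 1 without day 1 knockout replicate 3 to 57 without day 3 knockout replicate 2, and 127 with the replicate block, beside 100, 48, 213 and 314 in the first direction. Npas2, a clock transcription factor, fell by 0.47 ± 0.17 in the knockout and rose by 0.93 in wild type, a difference of −1.41 ± 0.24 (limma adjusted p = 0.00243). Its fall in the knockout alone did not pass without day 1 replicate 3 or 4 or day 3 replicate 2 or 4 (adjusted p = 0.0585 to 0.0678). Nor did this fall pass with the 2 groups alone (limma adjusted p = 0.0743) or with array weights (0.124). Ddc, the decarboxylase of serotonin and dopamine synthesis, read 9.59, 9.49, 9.61 and 9.71 in the day 1 arrays and 7.77, 7.94, 7.59, 7.80 and 7.72 in the day 3 arrays, with no overlap. Its change was −1.83 in the knockout and −0.85 in wild type (adjusted p of the difference = 0.0296). Mchr1, a melanin-concentrating hormone receptor, changed by −2.26 and −0.57 (adjusted p of the difference = 0.0408), and the transcription cofactor Cited1 by −1.58 and −0.33 (0.0355). Mfsd2a, a lipid transporter of the blood-brain barrier, changed by −0.21 and 0.60 (0.0317), and its knockout change passed the threshold without day 3 replicate 2 (adjusted p = 0.0289). The number of probe sets with a genotype difference, 111, fell to 46 without the 2 wild-type day 1 arrays whose label fields conflict, and ranged from 45 to 270 when 1 array was left out. It was 49 without day 1 knockout replicate 3, 45 without replicate 4, 270, 61, 53 and 207 without day 3 knockout replicates 2, 3, 4 and 5, and 35 without day 3 replicates 1 and 3. Without wild-type arrays it was 65, 68, 68 and 175 (day 1 replicates 1, 2, 4 and 5) and 175 and 54 (day 3 replicates 1 and 2).

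**Figure D3:**
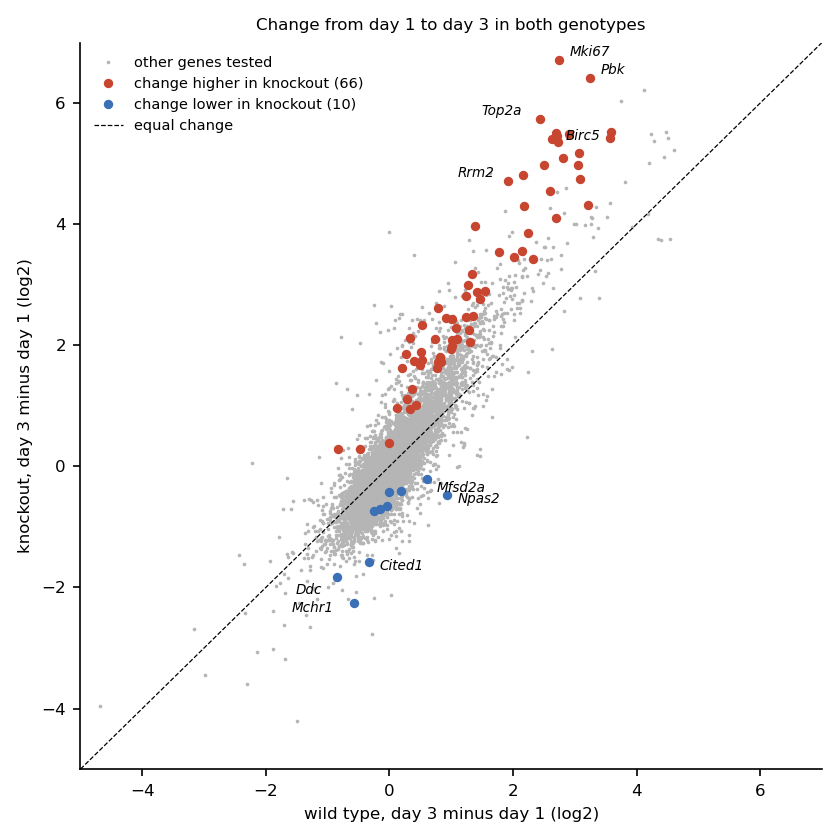
Change from day 1 to day 3 (log2) in wild-type cords (horizontal) and knockout cords (vertical), 1 point per gene. Red points are the 66 genes whose change was higher in the knockout and blue points the 10 whose change was lower, at a limma adjusted p of the difference under 0.05. Mki67 lies at 2.74 in wild type and 6.71 in the knockout.

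Genes of lipid-laden and lysosomal phagocytes rose as a group. Of 28 listed 26 were tested, with 24 higher and 0 lower, and a median of 1.94. Gpnmb, a glycoprotein of phagocytes full of lysosomes, read 7.00, 6.07, 6.26 and 3.84 in the day 1 arrays and 11.21, 11.59, 11.97, 12.58 and 11.75 in the day 3 arrays. Its day 1 arrays varied widely, yet all lay below day 3, and the rise was 6.03 ± 0.48 (65.2-fold, limma adjusted p = 3.79e-11). Cd5l, a secreted scavenger protein of macrophages, was at the lowest value of its probe set, 2.25, in the 4 day 1 arrays and read 7.61, 7.02, 8.17, 8.32 and 7.05 at day 3. Its difference of 5.38 is therefore a lower bound. Cd36, which takes up oxidised lipid, rose by 4.22 ± 0.57, and the fatty acid carrier Fabp4 by 4.85 ± 0.80. Trem2, the lipid-sensing receptor, read 5.71, 5.65, 5.57 and 5.03 in the day 1 arrays and 8.96, 9.04, 8.99, 9.66 and 8.90 in the day 3 arrays. It rose by 3.62 ± 0.22 with no overlap. The lysosomal Cd68 rose by 3.04 ± 0.27, the lectin Lgals3 by 1.93 ± 0.29 and the lipid carrier Apoe by 1.31 ± 0.15. Lpl, the lipoprotein lipase, did not pass (0.31 ± 0.32, adjusted p = 0.455). The list mean was 8.90 to 9.40 at day 1 and 10.91 to 11.64 at day 3, between SHAMKO at 8.02 and day 7 at 11.73.

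Complement and Fc receptor genes rose without exception among those tested, 12 of 16 listed, with a median of 1.99. C1qa, a chain of the first complement component, read 10.70, 10.43, 10.39 and 10.47 in the day 1 arrays and 12.78, 12.70, 12.80, 13.21 and 12.55 in the day 3 arrays. The days do not overlap, and it rose by 2.31 ± 0.11 (limma adjusted p = 1.48e-15). Its partner chains C1qb and C1qc rose by 2.39 ± 0.12 and 2.61 ± 0.13, and the anaphylatoxin receptor C3ar1 by 2.42 ± 0.24. With day 3 replicates 1 and 3 left out 10 of the 12 were still higher. Of 7 tested genes of MHC class II presentation 6 rose, median 1.40, led by H2-Eb1 (2.40 ± 0.45), H2-Aa (2.10 ± 0.51), H2-Ab1 (1.55 ± 0.34) and the invariant chain Cd74 (1.40 ± 0.36). In the wound macrophage list 6 of 13 rose and 0 fell. These were led by the platelet factor Pf4 (2.85 ± 0.48) and the mannose receptor Mrc1 (2.30 ± 0.49), with the heme-degrading Hmox1 at 1.56 ± 0.33. Arg1 was high at both days and did not pass, from 10.81 to 11.74 at day 1 and 11.08 to 13.21 at day 3 (0.71 ± 0.42, adjusted p = 0.166).

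Genes that mark resident microglia rose from below the control level at day 1 to above it at day 3. P2ry12, the ADP receptor of resting microglia, read 5.03, 5.05, 4.15 and 3.06 in the day 1 arrays and 8.62, 8.64, 7.39, 8.27 and 8.73 in the day 3 arrays. Every day 3 array lay above every day 1 array, and the rise was 4.01 ± 0.31 (limma adjusted p = 1.81e-11), while SHAMKO averaged 7.79. Tmem119 rose by 2.83 ± 0.29, Gpr34 by 2.90 ± 0.26, the fractalkine receptor Cx3cr1 by 1.59 ± 0.19 and the growth factor receptor Csf1r by 1.91 ± 0.11. Fcrls, an Fc receptor-like gene of microglia, rose by 2.77 ± 0.21 and was the 1 member whose change also differed from wild type (adjusted p = 0.0346). Of 11 tested 10 rose and 0 fell, and the transcription factor Sall1 did not pass (0.44 ± 0.21, adjusted p = 0.0861), though it did with the 2 groups alone (0.0349) and with array weights (0.000355). The list mean was 6.95, 6.80, 6.59 and 6.54 at day 1 and 9.04, 9, 8.60, 9.08 and 9.16 at day 3. SHAMKO stood at 7.22 and day 7 at 9.44. That the day 1 level lay below the controls is a comparison of levels and was not tested for the list.

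**Figure D4:**
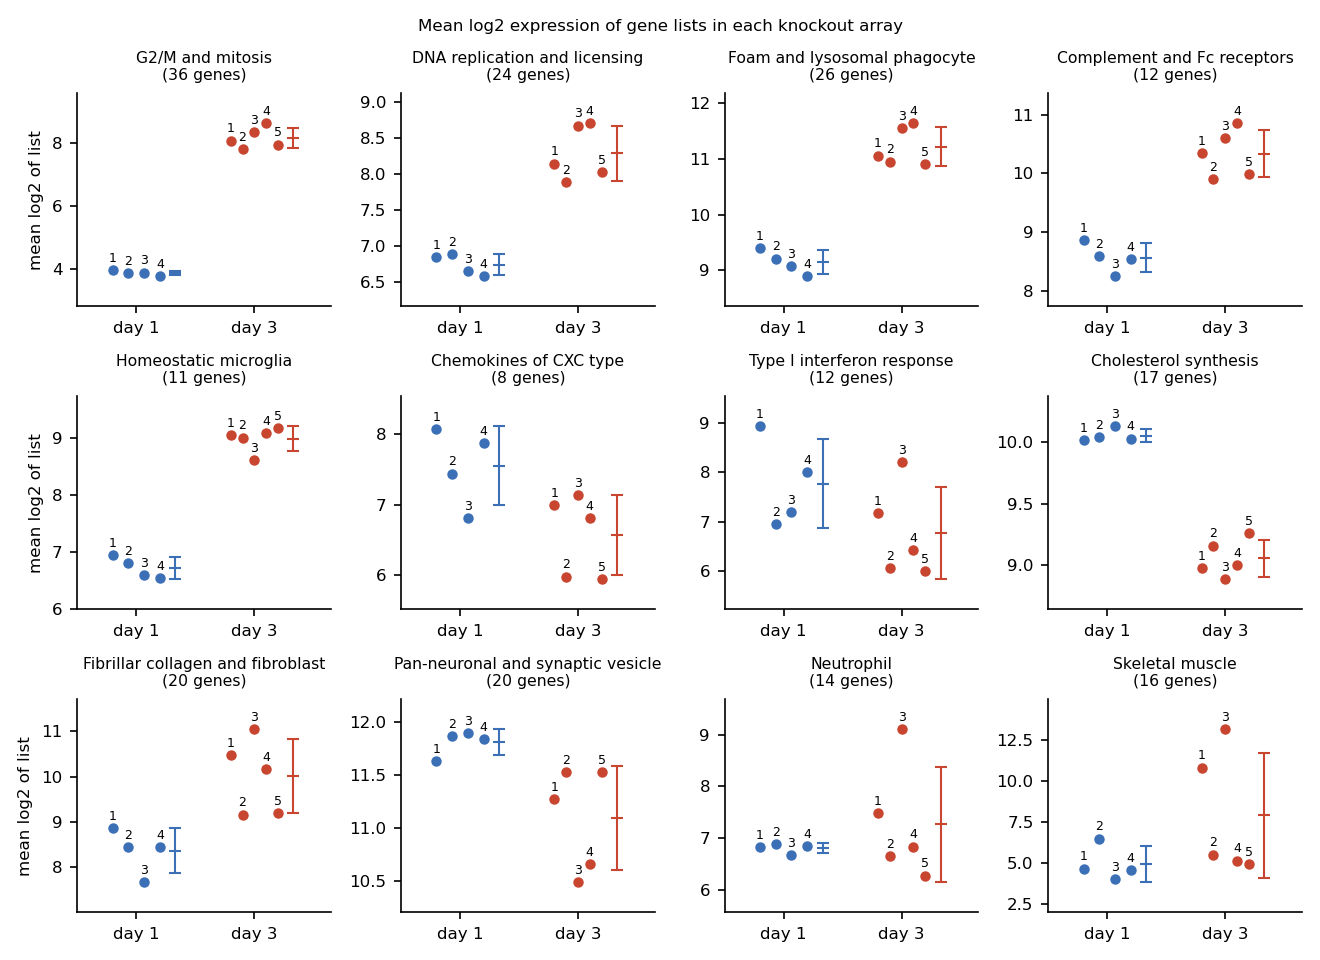
Mean log2 expression of 12 gene lists in each of the 9 knockout arrays (numbers are replicates; day 1 blue, day 3 red; bars are mean and SD over arrays). The proliferation, phagocyte and microglia lists separate the days, while the skeletal muscle list reads 10.79 and 13.12 in day 3 replicates 1 and 3 and 6.48 or less elsewhere.

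Most CXC chemokines fell, and single cytokines and CC chemokines moved. Il6, a cytokine of the acute phase, read 7.36, 6.28, 3.87 and 7.84 in the day 1 arrays and 3.07, 2.20, 3.56, 2.78 and 2.82 in the day 3 arrays. Day 1 replicate 3 was low, near the highest day 3 array, but the groups did not overlap, and the fall was 3.45 ± 0.62 (limma adjusted p = 5.72e-05). Of 8 tested CXC chemokines 6 fell and 1 rose, with a median of −1.08. The neutrophil attractants Cxcl3, Cxcl2 and Cxcl1 fell by 3.95 ± 0.63, 2.69 ± 0.71 and 1.47 ± 0.44, and in each of them at least day 1 replicate 3 overlapped day 3. Cxcl16, a membrane-bound ligand and scavenger receptor of phagocytes, rose by 2.69 ± 0.32, and 2 members rose without day 1 replicate 1 or day 3 replicate 2. Of 10 CC chemokines 2 were higher and 2 lower, no more than the shares of all genes (22.8% higher, 30.1% lower). The monocyte attractant Ccl2 did not pass (−0.14 ± 0.30, adjusted p = 0.731), while Ccl8 rose by 3.27 ± 0.58 and Ccl11 by 1.61 ± 0.38, and Ccl4 and Ccl12 fell by 1.47 and 1.43. Among 15 cytokines and receptors 6 fell, with a list median of −0.04, among them Il1b by 1.85 ± 0.38. The 2 that rose, led by Tnfrsf1b (1.67 ± 0.22), became 1 without day 1 replicate 2 or 3 or day 3 replicate 3 or 4, and 4 without day 3 replicate 2.

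Some immediate early and interferon genes fell, in shares little above that of all genes. Of 15 AP-1 and immediate early genes 6 fell and 0 rose, against 30.1% of all genes lower. Fosl1, the Fra-1 subunit of AP-1, fell from 4.40 to 5.56 at day 1 to the bottom of the scale in 4 of 5 day 3 arrays, so its fall of 2.43 is a lower bound. Maff fell by 1.98 ± 0.32 and Fos by 0.92 ± 0.17, and Atf3 did not pass (0.37 ± 0.32, adjusted p = 0.358). Of 12 type I interferon response genes 5 fell and 0 rose, against the same 30.1%, with a median of −0.90. With the 2 groups alone 3 fell. Cxcl10, an interferon-induced chemokine, read 10.94, 8.28, 8.43 and 9.16 in the day 1 arrays and 6.90, 6.59, 8.13, 6.36 and 6.06 in the day 3 arrays. It fell by 2.39 ± 0.43 (limma adjusted p = 4.79e-05). Ifit1 and Usp18, an effector and a brake of this response, fell by 2.01 ± 0.60 and 2.19 ± 0.60, but did not pass with the 2 groups alone (adjusted p = 0.069 and 0.0609), nor did Ifit1 without day 1 replicate 1 (0.0504). Day 3 replicate 3 was the exception: its list mean was 8.21, where the other day 3 arrays read 6.00 to 7.18 and the day 1 arrays 6.96 to 8.93. Without it 8 members fell rather than 5.

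The other large decreases were single genes of varied roles. Slc10a6, a transporter of sulfated steroids, read 6.15 to 7.15 at day 1 and was at the bottom of the scale in 4 of 5 day 3 arrays, so its fall of 4.21 is a lower bound. Saa1, an acute phase protein, fell by 3.59 ± 0.47, and Sphk1, a sphingosine kinase, by 3.19 ± 0.51. Lyve1, a hyaluronan receptor of lymphatic vessels and some macrophages, fell by 3.07 ± 0.46. The interferon-induced GTPases Gbp2, Iigp1 and Igtp fell by 3.01 ± 0.32, 2.65 ± 0.49 and 2.45 ± 0.27. The lipid droplet protein Plin4, the phospholipase Pla2g3, the kinase Map3k6 and the transcript D130037M23Rik fell by 2.17 to 2.77. All of these have no overlap between the days. Probe sets whose names end in _s_at or _x_at, among them those of Saa1, Gbp2, Pbk, Trem2, Mcm5, Rrm2 and Mchr1, can also match related transcripts.

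Cholesterol synthesis fell almost throughout. Of 21 listed 17 were tested, and 16 fell, 0 rose, against 30.1% of all genes lower, and the median member fell by 1.00. Sqle, the squalene epoxidase, read 10.84, 10.80, 10.86 and 10.77 in the day 1 arrays and 9.36, 9.69, 9.45, 9.55 and 9.82 in the day 3 arrays. The spread within each day is small beside the difference, −1.24 ± 0.12 (limma adjusted p = 2.26e-09). Fdps, which makes farnesyl diphosphate, fell by 1.52 ± 0.13, Msmo1 and Lss by 1.35 ± 0.09 and 1.35 ± 0.13, and the sterol sensor Insig1 by 1.44 ± 0.10. Hmgcs1, at the head of the pathway, fell by 0.71 ± 0.12, and the isomerase Ebp did not pass (−0.14 ± 0.08, adjusted p = 0.174). The list mean was 10.02 to 10.13 at day 1, level with SHAMKO at 10.08, then 8.89 to 9.26 at day 3 and 8.79 at day 7. The wild-type median change of these genes was −0.88, and no member's change differed between the genotypes at an adjusted p under 0.05.

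Smaller shifts were seen in other metabolic and stress genes. Of 17 tested subunits of oxidative phosphorylation 13 fell and 0 rose, with a median of −0.22. In the heat shock and unfolded protein list 9 of 18 fell and 2 rose, with the small heat shock protein Hspb1 falling by 1.10 ± 0.22. In the heme and iron list 6 of 14 rose and 2 fell. The iron exporter Slc40a1 rose by 2.87 ± 0.26 and the phagosomal metal transporter Slc11a1 by 2.41 ± 0.26. The 2 decreases became 0 or 1 when 1 of 5 arrays was left out (day 1 replicate 1, 2 or 3, day 3 replicate 2 or 4). Zinc transporters parted, Slc39a8 rising by 1.82 ± 0.17 and Slc39a14 falling by 1.08 ± 0.15. Glycolysis and hypoxia genes rose in 3 of 15 cases (5 without day 3 replicate 2) and fell in 2, with Hk2, the inducible hexokinase, at 1.36 ± 0.29. Cytosolic ribosomal protein genes, 4 of 13 higher, moved by no more than 0.29 in either direction, and the count became 2 without day 1 replicate 2, 3 or 4 or day 3 replicate 3 or 4.

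**Figure D5:**
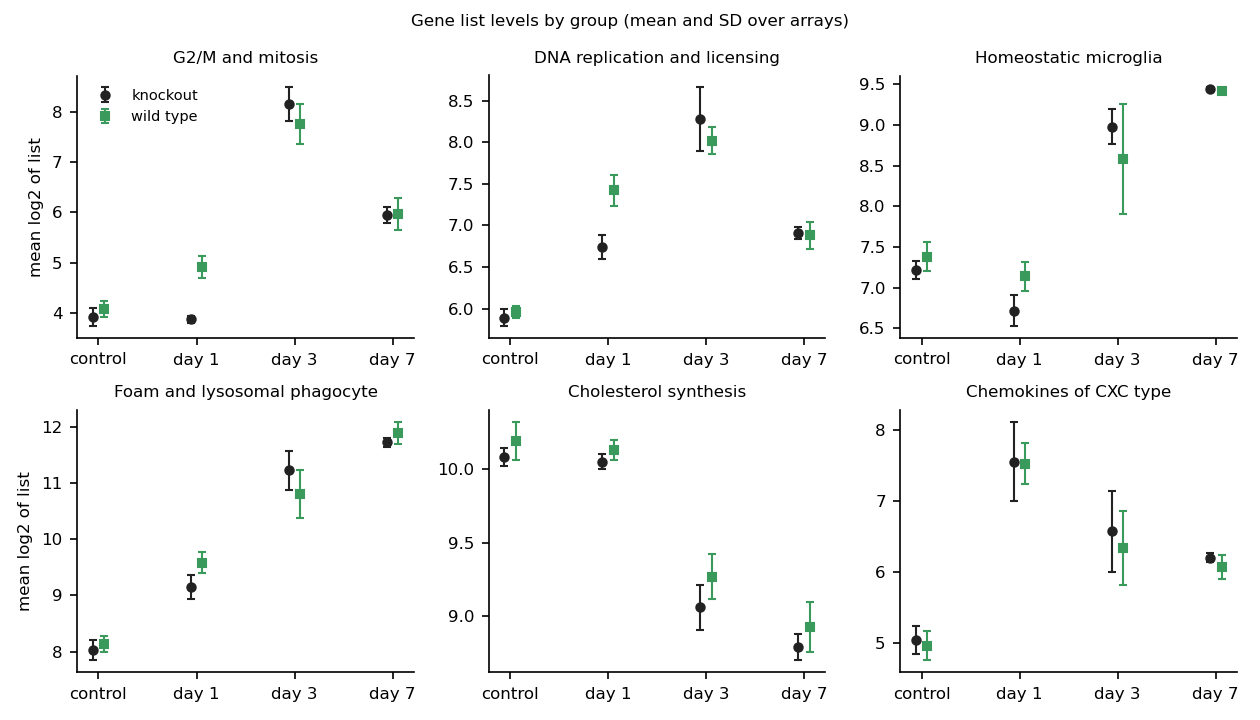
Mean log2 expression of 6 gene lists in the control (titled SHAM), day 1, day 3 and day 7 groups of knockout (black) and wild-type (green) cords, with the SD over 4 or 5 arrays. The knockout G2 and mitosis mean goes from 3.87 at day 1, beside 3.92 in the controls, to 8.15 at day 3, and cholesterol synthesis from 10.05 to 9.06.

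Neuronal transcripts fell. Of 20 tested pan-neuronal and synaptic vesicle genes 19 fell and 0 rose, with a median of −0.68. Snap25, a synaptic SNARE protein, read 14.72, 14.91, 15.11 and 14.97 in the day 1 arrays and 14.54, 14.71, 13.83, 13.82 and 14.70 in the day 3 arrays. Day 3 replicates 3 and 4 were lowest, and all day 3 arrays lay below day 1, by a mean of 0.61 ± 0.14 (limma adjusted p = 0.000873). The vesicle protein Sv2b fell by 1.24 ± 0.19, the nuclear marker Rbfox3 (NeuN) by 1.19 ± 0.23 and the heavy neurofilament Nefh by 1.07 ± 0.16. The list mean was 11.63, 11.87, 11.90 and 11.84 at day 1 and 11.27, 11.53, 10.49, 10.66 and 11.53 at day 3. Replicate 3, the array with the most muscle signal, was thus the lowest, and replicate 4, with little muscle signal, was next. Without day 3 replicates 1 and 3, 15 of 20 fell, and with a spread estimated from the 2 groups alone 10 did, without Snap25 (adjusted p = 0.0611). Genes of inhibitory transmission fell in 5 of 9 cases, with the glycine transporter Slc6a5 at −1.17 ± 0.23, the vesicular transporter Slc32a1 at −1.18 ± 0.20 and the glycine receptor Glra1 at −1.16 ± 0.23. Of 5 motor neuron genes 4 fell, led by Chodl (−1.17 ± 0.31). With the 2 groups alone, 3 inhibitory and 2 motor neuron genes fell. Dorsal horn peptides and receptors fell in 3 of 11 cases, led by Grp (−0.91 ± 0.34), which is no more than the 30.1% of all genes lower. Grp itself did not pass without day 1 replicate 2 or 4 or day 3 replicate 3 or 4 (adjusted p = 0.0696 to 0.134), and the count was 0 without day 1 replicate 2 or day 3 replicate 4, 1 without day 1 replicate 4 or day 3 replicate 3, and 5 without day 3 replicate 1, 2 or 5.

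Bdnf fell among the neurotrophin genes. It encodes the ligand of TrkB and read 7.55, 8.10, 7.57 and 7.83 in the day 1 arrays and 6.39, 7.10, 5.21, 5.53 and 6.77 in the day 3 arrays. The days do not overlap, the lowest values are again in day 3 replicates 3 and 4, and the fall was 1.56 ± 0.27 (limma adjusted p = 3.46e-05). Control cords averaged 6.88. Wild-type Bdnf changed by −0.70 (adjusted p = 0.0557), and the test of the difference between genotypes gave an adjusted p of 0.344. Of the other 4 Ntrk2 probe sets 3 fell. 1458622_at read 10.44, 10.82, 10.86 and 10.89 at day 1 and 10.23, 10.52, 9.19, 9.42 and 10.45 at day 3, a change of −0.79 ± 0.20 (limma adjusted p = 0.00184). 1437560_at changed by −0.76 ± 0.21 and 1435305_at by −0.58 ± 0.18, and in all 3 the days overlap, while 1446712_at was dim and read 3.36 to 3.83 throughout. The files do not say which TrkB forms these probe sets read. Of the 8 neurotrophin ligands and receptors tested 4 fell and 0 rose, and 2 did without day 3 replicates 1 and 3.

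Glial lists moved in part, and the shares of astrocyte genes that fell were little above that of all genes. Among 20 reactive astrocyte genes 1 rose and 7 fell, with a median of −0.05, where 22.8% of all genes rose and 30.1% fell. Vim, an intermediate filament of reactive astrocytes and many other cells, rose by 0.82 ± 0.19, while Gfap, high at both days, did not pass (0.28 ± 0.13, adjusted p = 0.0766). Among the 7 that fell were Ptx3 (−1.77 ± 0.20), Serpina3n (−0.53 ± 0.13) and Aspg (−1.14 ± 0.17). Without day 1 replicate 1 Gfap passed (adjusted p = 0.0433), and 3 members rose. In the homeostatic astrocyte list 3 of 15 rose and 5 fell, close to the shares of all genes (22.8% higher, 30.1% lower). The gap junction protein Gja1 and the water channel Aqp4 rose by 0.81 ± 0.15 and 0.66 ± 0.18, and the GABA transporter Slc6a11 fell by 1.03 ± 0.24. Oligodendrocyte precursor genes gave 5 of 11 higher and 3 lower. Gpr17, a receptor of precursors about to mature, read 5.44, 5.80, 6.11 and 5.28 in the day 1 arrays and 8.29, 9.37, 8.14, 8.67 and 8.44 in the day 3 arrays. It rose by 2.93 ± 0.75, where SHAMKO averaged 7.91, and the proteoglycan Cspg4 (NG2) rose by 1.80 ± 0.17. Myelin genes fell in 7 of 14 cases, by no more than 0.83, and 4 did without day 3 replicates 1 and 3. Mbp, the basic protein of myelin, read 15.50 to 15.68 in all 9 arrays (−0.05 ± 0.04, adjusted p = 0.291).

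Matrix and vessel genes rose with wide spread. Of 20 tested genes of fibrillar collagen and fibroblasts 13 rose and 1 fell, with a median of 1.96. Col3a1, a fibrillar collagen of repair tissue, read 11.28, 10.35, 8.76 and 10.50 in the day 1 arrays and 13.77, 11.91, 14.08, 13.51 and 12.05 in the day 3 arrays. Day 3 replicates 1, 3 and 4 were high and replicates 2 and 5 stood little above day 1, with a rise of 2.85 ± 0.74 (limma adjusted p = 0.00239). The proteoglycan Lum rose by 3.02 ± 0.59, Col1a1 by 2.80 ± 0.80 and the matricellular Postn by 2.83 ± 0.81, and Thy1, which neurons also carry, fell by 0.81 ± 0.13. Replicates 1 and 3 are the arrays with the muscle signal, and without them 8 members rose, the median was 1.06, and Col1a1 and Postn did not pass (adjusted p = 0.0914 and 0.196). Postn did not pass with the 2 groups alone either (limma adjusted p = 0.0808). Of 16 matrix proteases and inhibitors 7 rose and 2 fell. Mmp13, a collagenase, read 3.81, 3.88, 2.49 and 2.40 in the day 1 arrays and 7.72, 4.37, 11.24, 5.19 and 6.55 in the day 3 arrays, with the day 3 arrays spread over a range far wider than at day 1 and a rise of 3.87 ± 1.27 (adjusted p = 0.0135), which did not pass without day 3 replicate 3 (0.062). Plau, the urokinase, rose by 2.47 ± 0.31, and Timp1 did not pass (0.05 ± 0.24, adjusted p = 0.876). The 2 decreases became 0 without day 1 replicate 1 and 1 without day 1 replicate 4 or day 3 replicate 1, 2 or 5.

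In the proteoglycan and tenascin list 5 of 11 rose and 2 fell, with the perineuronal net protein Hapln1 at −1.39 ± 0.25. The number that rose was 3 without day 1 replicate 2, 3 or 4 or day 3 replicate 4. Endothelial genes were higher in 7 of 16 cases. Cldn5 of tight junctions rose by 1.00 ± 0.28 and the junctional cadherin Cdh5 by 1.05 ± 0.42. Cdh5 did not pass without day 1 replicate 2, 3 or 4, day 3 replicate 3 or 4 or day 3 replicates 1 and 3 together, with no filter, with the 2 groups alone or with array weights (adjusted p = 0.0515 to 0.161). The number of endothelial genes that rose became 3 without day 1 replicate 3, without day 3 replicate 4 or without day 3 replicates 1 and 3 together, and 4 without day 3 replicate 3. Mfsd2a was the 1 endothelial member whose change differed between genotypes. Pericyte and smooth muscle genes rose in 6 of 10 cases, with smooth muscle actin Acta2 at 2.14 ± 0.35 and Rgs5 at 1.23 ± 0.29. In the list of meningeal genes 4 of 10 rose and 1 fell, led by Fmod (2.68 ± 0.59), with 2 higher without day 1 replicate 3 or without day 3 replicates 1 and 3.

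Skeletal muscle is not part of the cord, and its signal differed between arrays of 1 group. Acta1, the actin of skeletal muscle, read 5.30, 8.21, 4.09 and 4.69 in the day 1 arrays and 12.67, 7.29, 14.75, 6.98 and 5.91 in the day 3 arrays. Day 3 replicates 1 and 3 alone stood above all day 1 arrays, and the change of 3.95 ± 1.63 passed the threshold narrowly (limma adjusted p = 0.0483), but not without day 3 replicate 1 or 3 (0.13 and 0.184) or day 1 replicate 1, 3 or 4 (0.0845 to 0.127). Of 16 muscle genes 4 were higher, but 1 was without day 1 replicate 1, 3 or 4, without day 3 replicate 1 or 3, or without both of these, and 8, 10 and 11 were without day 3 replicates 2, 4 and 5. The control cords also held muscle signal, with a SHAMKO list mean of 9.08 (7.61 to 10.47 over 4 arrays). Neutrophil genes showed no common movement, with 1 of 14 higher and 1 lower. S100a8, an abundant neutrophil protein, read 12.72, 12.53, 12.10 and 12.55 in the day 1 arrays and 13.10, 12.17, 14.36, 12.03 and 11.31 in the day 3 arrays (0.12 ± 0.59, adjusted p = 0.887). The neutrophil list mean was 9.10 in day 3 replicate 3 and 6.28 to 7.48 in the other 8 arrays, and the list median, 0.26, was −0.05 without that array. Mmp8, a collagenase of neutrophil granules, rose by 1.75 ± 0.51, and Il1r2, the decoy receptor for interleukin 1, fell by 1.56 ± 0.48. Mmp8 did not pass without day 3 replicates 1 and 3 (adjusted p = 0.0882) or with the 2 groups alone (0.0507). The fallen count was 2 without day 3 replicate 3, and the risen count 0 without day 3 replicates 1 and 3.

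Some lists could not be read at all or hardly moved. Of 16 listed markers of T, B and NK lymphocytes 13 are on the array as probe sets of 1 gene, and none of these passed the expression filter, and of 8 erythrocyte genes 2 were tested, with neither passing the threshold. Among 15 regeneration-associated genes 2 rose and 4 fell, with Sprr1a, a protein of injured neurons, rising by 2.87 ± 0.34. Of 9 Schwann cell genes 1 fell, and of 5 genes of ependymal cilia 2 rose. The 1 tested adipocyte gene, Car3, was higher by 2.61 ± 1.04, but did not pass without day 1 replicate 1, 3 or 4 or day 3 replicate 1 or 3 (adjusted p = 0.0638 to 0.188). Car3 read 11.44 and 14.52 in day 3 replicates 1 and 3, the arrays with the muscle signal, and 7.96 to 8.48 in the other day 3 arrays. Without replicates 1 and 3 its change was 0.73 (limma adjusted p = 0.572).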

How the data were processed

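Thoracic spinal cord RNA of 34 samples was hybridised to 1-colour Affymetrix arrays. Per the labels' protocols total RNA was extracted with Trizol and 1 µg was made into biotinylated cRNA. The deposited values are log2 expression that the authors computed with GCRMA, per the submitters' processing notes, with the version not given in the sources used here. Their medians per array run from 4.139 to 4.39, and 33.7% of values lie within 0.1 of the lowest, 2.17. The number of arrays limits precision.

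Arrays were grouped by title. The source and time fields of DAY1WT replicates 1 and 2 contradict their titles, which touches the wild-type comparison and the difference between genotypes. Of 45101 probe sets, 24573 that were not controls and reached log2 4 in at least 4 arrays were tested, 20926 of them naming 1 gene, for 11998 genes. Probe sets were named from the platform table: 34945 had 1 gene, 932 several and 9160 none, and 34741 were updated through RefSeq (GRCm38.p6). Genes with several probe sets were represented by the brightest on average.

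The 34 arrays were fitted together with limma 3.58.1 in R 4.3.3, with a mean for each of the 8 groups (26 residual degrees of freedom), so that all groups share the estimate of spread. Errors are limma's SE. P-values were adjusted by Benjamini-Hochberg over all probe sets of a comparison. Tested on simulated data for day 3 against day 1 in the knockout (24573 probe sets), the fit recovered 92% of 100 planted log2 changes of 1 and 100% of 100 of 2. It also called 17 unchanged probe sets. The simulated noise was normal, independent and equally wide in all groups. It therefore does not cover groups of unequal spread, such as the knockout muscle list (SD 3.81 at day 3, 1.08 at day 1).

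Genes were named by rule: the 15 largest changes each way without overlap between days, the lead genes and 4 largest changes of each list with other members as examples, the 5 largest genotype differences each way, and all Ntrk2 probe sets. The rule gave 237 genes, of which 137 are shown, chosen after their values were seen. The comparison, the 44 gene lists and the rule were chosen with earlier results of these data known. Same-numbered arrays of the 2 days did not deviate together (r = −0.138, 0.075, −0.29 and −0.05), so no pairing was used. The alternatives were other filters, normalizations, priors and array weights, the 2 groups alone, a replicate block, the mean of all probe sets of a gene and leaving out arrays. Leaving out day 3 replicates 1 and 3 together was added after seeing the data. Python 3.11.15 with pandas 2.3.3 made the tables.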

Additional observations from a re-analysis of the deposited data

Results flagged for a closer look

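Within each knockout group, the highest or lowest of the 4 or 5 arrays was set against the others by Dixon's ratio for each named gene and list, 380 tests in all, of which 19 passed the 95% critical value. Chance alone flags about 1 in 20. At day 1, replicate 1 stood apart for Cxcl16 (5.14, others 4.50 to 4.55), Fosl1 (5.56, others 4.40 to 4.57), Rbfox3 (11.58, others 11.95 to 11.99) and the neurotrophin list mean (8.28, others 8.47 to 8.50). Replicate 2 did so for Cdkn2c (4.49) and Cenpa (3.46), by 0.05 or less. Replicate 3 did so for Aspm (2.54), Cd74 (3.94) and the myelin list mean (12.10), and replicate 4 for Plk1 (2.17).

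At day 3, replicate 4 was high for C1qc (11.46), Trem2 (9.66), Fosl1 (2.75) and the Schwann cell list mean (8.82). Replicate 3 was low for Cx3cr1 (9.76) and high for Vim (15.40) and Slc10a6 (3.00). Replicate 1 was low for Fdps (8.56) and replicate 5 for Rgs5 (10.74). For the genes named here, none of these values crossed into the other day's range.

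The change from day 1 to day 3 differed between genotypes by limma's interaction test for 19 named genes. It was higher in the knockout for Mki67 (3.97), Top2a (3.29), Pbk (3.16), Birc5 (2.80), Rrm2 (2.79), Ccna2 (2.77), Cep55 (2.74), Bub1 (2.59), Cdk1 (2.48), Nusap1 (1.94), Cdc6 (1.79), Ccne2 (1.60), Mcm5 (1.34) and Fcrls (1.31). It was lower for Mchr1 (−1.69), Npas2 (−1.41), Cited1 (−1.25), Ddc (−0.98) and Mfsd2a (−0.81).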

How the results depend on the processing

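The count of 11447 probe sets that changed between the days in the knockout stayed within 1.5 times under all settings tried, from 7905 with the 2 groups alone to 11746 with quantile normalization, and from 9933 to 11855 when 1 array was left out. It was 9030 without day 3 replicates 1 and 3, of which 8706 were among the 11447. The wild-type count of 6661 fell to 4074 with the 2 groups alone, was 9804 with array weights (10756 in the knockout, so the gap between genotypes nearly closed), and ranged from 5414 to 6653 with 1 array left out. The 111 genotype differences were less stable: 69 with no filter, 30 with the groups compared alone, 44 with array weights, 441 with the replicate block, 46 without the 2 day 1 wild-type arrays with conflicting labels, 35 without day 3 knockout replicates 1 and 3, and 45 to 270 with 1 array left out. The count rose to 270 and 207 without day 3 knockout replicate 2 or 5 and to 175 without day 1 wild-type replicate 5 or day 3 wild-type replicate 1. The cause was not tested. With the replicate block the knockout count was 11721, and no named gene's call for the knockout change was altered. For single genes only the knockout change was followed under these settings, not the difference between genotypes. Samples with the same number share only that number. Of the 135 named genes that passed the threshold for the knockout change, none reversed its direction. Reversals were not counted for named genes that did not pass. Under median centring, quantile normalization and an intensity trend with a robust prior 149 of 149 kept their call. With the mean of all probe sets of a gene 13 of 149 genes moved by 1.5 SE or more, among them Top2a to 3.73, E2f1 to 0.41, Hapln1 to −0.78 and Aqp4 to 1.01, and the G2 and mitosis median went from 4.45 to 3.94. With the 2 groups alone the members that fell went from 6 to 3 for cytokines, from 5 to 3 for interferon genes and from 5 to 3 for homeostatic astrocytes. Depth has no meaning for arrays. Signal near the lowest value, 2.17, limits the sizes of Cd5l, Slc10a6, Fosl1, Tk1, Plk1, Aurkb and Aspm to lower bounds. The rise of Cdkn2c, from the lowest value of its own probe set, is likewise a lower bound.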
